A study of Mus musculus with 2 samples.

Results

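Distal open regions inside first introns were described in ATAC-seq data from mouse megakaryocytes, the cells of the marrow from which platelets are shed. ATAC-seq marks open chromatin by letting a transposase insert sequencing adapters into accessible DNA. A region was taken as shared where the merged peaks of both samples overlapped. It was kept where every part of it lay more than 1 kb from every annotated transcript start and its strongest summit fell in the first intron of the longest transcript of a protein-coding gene. This left 7201 of the 67991 shared regions on chromosomes 1 to 19, or 10.6%, and 15.1% of the 47730 distal ones. Replicate 1 alone had 8376 such regions (10.7% of its own) and replicate 2 had 8846 (11.1%).

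The study had 1 group of 2 biological replicates and no other cell type or treatment. Both samples were primary cells from male adult C57BL/6J mice aged 5 to 6 weeks, with 50000 cells per library, and both carry the same donor record. The label of replicate 2 alone lists sequencers. Only peak lists were used, so sequencing depth is unknown, and an unlisted region was not detectable at that depth. Fold enrichment means the height of a peak over its local background, as the authors' peak caller gave it. Values are given for both replicates or as mean ± SD over them (n = 2), and that SD is the spread between these samples only.

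The first intron is the stretch that is removed from a transcript between its first and second exons. It is often the longest intron of a gene, and it is known to hold enhancers, which are bound by transcription factors and act on promoters over a distance. Blood cell enhancers are known to carry motifs for ETS factors, RUNX1, GATA factors, AP-1 factors and, in myeloid cells, PU.1 and C/EBP. Megakaryocyte genes are known targets of GATA1 with its cofactor FOG1 (Zfpm1), of FLI1 and of RUNX1.

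The megakaryocyte label was checked against 12 defining markers before the results. At only 4 of them was a start within 500 bp of a shared region, namely Itga2b at 13.5-fold, Itgb3 at 7.62-fold, Vwf at 9.39-fold and Pf4 at 4.56-fold. None was shared at Gp1ba, Gp1bb, Gp5, Gp9, Gp6, Clec1b, Ppbp or Selp, although replicate 1 listed a region of 3.85-fold at Gp1ba, and replicate 2 listed 4.73-fold at Gp9 and 4.26-fold at Selp. Over the full lists, by the same measure, 19 of 30 megakaryocyte and platelet surface and granule genes (63.3%, the 12 markers included), 23 of 24 megakaryocyte transcription factor genes, 33 of 34 platelet and cytokine signalling genes and 21 of 23 proplatelet cytoskeleton genes had a shared region at a start. Among the other surface genes the values ran from 3.66-fold at Cd36 and 4.2-fold at P2ry12 to 10.4-fold at P2ry1 and 11.1-fold at Cd226. Srgn had 5-fold, F2rl3 5.16-fold, P2rx1 9.07-fold and Nbeal2 10.1-fold, and none was shared at Treml1, Mmrn1 or Tbxa2r. Of the other cell types, 21 of 23 neutrophil genes and 16 of 20 monocyte and macrophage genes had a shared region at a start, as did 60.6% of all coding genes. Erythroid genes had one at 20 of 24, stem and progenitor genes at 14 of 20 and T and NK cell genes at 14 of 23. B cell genes had one at 11 of 19, and mast cell, basophil and eosinophil genes at 8 of 15. Endothelial genes had one at 6 of 16, mesenchymal stromal genes at 5 of 16, neuronal genes at 4 of 18 and hepatocyte genes at 2 of 19. The 63.3% of the surface and granule list was thus close to the 60.6% of all coding genes. Housekeeping genes had a shared region at a start in 18 of 18 and cell cycle genes in 20 of 20. Most defining markers thus lacked such a region. Most genes of the transcription factor, signalling and cytoskeleton lists had one, as did those of the housekeeping, cell cycle and neutrophil lists. How far other myeloid cells contribute to the first-intron regions was not tested, and in these pooled samples a smaller share of cells and a lower opening per cell cannot be told apart.

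The sequences below lie within 100 bp of the strongest first-intron summit of 7 genes of megakaryocytes and platelets, and show which of the motifs described here are present where such a gene is open. All are from the plus strand of mm10, 5′ to 3′, and capitals mark matches on either strand to ETS (GGAAGT), PU.1 (GAGGAAGT, which contains the ETS letters), RUNX (TGTGGT), AP-1 (TGANTCA), TAL1 E-box (CAGATG) or CTCF core (AGNNGGCGC) motifs, or to AGATAA, the motif of GATA factors. The transcription factor genes were Fli1 (chr9:32500931-32501131), Etv6 (chr6:134065130-134065330), Bach1 (chr16:87713103-87713303) and Zfpm1 (chr8:122294259-122294459).
Fli1: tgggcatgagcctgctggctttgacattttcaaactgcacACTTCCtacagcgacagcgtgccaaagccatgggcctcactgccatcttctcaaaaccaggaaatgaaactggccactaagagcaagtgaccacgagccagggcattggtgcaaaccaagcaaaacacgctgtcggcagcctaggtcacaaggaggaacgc
Etv6: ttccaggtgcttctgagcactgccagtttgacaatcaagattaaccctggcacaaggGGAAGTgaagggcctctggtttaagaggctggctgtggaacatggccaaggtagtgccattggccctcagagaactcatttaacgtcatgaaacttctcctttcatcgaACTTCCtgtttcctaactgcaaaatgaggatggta
Bach1: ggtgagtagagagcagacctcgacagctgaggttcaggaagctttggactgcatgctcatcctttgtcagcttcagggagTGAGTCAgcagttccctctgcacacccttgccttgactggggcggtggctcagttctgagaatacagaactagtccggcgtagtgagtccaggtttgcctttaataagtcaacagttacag
Zfpm1: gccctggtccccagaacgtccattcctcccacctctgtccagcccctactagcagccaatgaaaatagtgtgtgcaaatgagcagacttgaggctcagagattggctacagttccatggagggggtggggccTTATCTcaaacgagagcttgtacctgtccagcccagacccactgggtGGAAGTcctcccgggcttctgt
The platelet surface genes were Cd36 (chr5:17839706-17839906), Itga2 (chr13:114915786-114915986) and P2ry12 (chr3:59260804-59261004).
Cd36: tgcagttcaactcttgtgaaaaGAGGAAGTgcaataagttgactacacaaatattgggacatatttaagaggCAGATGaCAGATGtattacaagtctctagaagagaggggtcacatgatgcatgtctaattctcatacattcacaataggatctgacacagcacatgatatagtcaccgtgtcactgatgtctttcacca
Itga2: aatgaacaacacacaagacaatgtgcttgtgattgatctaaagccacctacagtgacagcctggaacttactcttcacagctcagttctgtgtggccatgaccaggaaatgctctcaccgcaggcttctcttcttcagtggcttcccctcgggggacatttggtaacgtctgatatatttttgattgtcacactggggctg
P2ry12: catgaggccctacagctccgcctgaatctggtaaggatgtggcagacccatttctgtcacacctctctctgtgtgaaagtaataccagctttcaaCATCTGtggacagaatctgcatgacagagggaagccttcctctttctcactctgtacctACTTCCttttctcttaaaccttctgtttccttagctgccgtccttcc
An ETS match was present in 5 of these 7 windows and a GATA match in 1, that of Zfpm1. Of all first-intron regions, 42.5% held an ETS match and 9.48% a GATA match. Bach1 had an AP-1 match, Cd36 had the longer PU.1 match, and Itga2 had none of the motifs.

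Windows from 2 myeloid genes and from the strongest first-intron region of all are shown beside them. The myeloid genes, which were chosen after their values were seen, are Spi1 (chr2:91089131-91089331), which encodes PU.1 itself, and the neutrophil gelatinase gene Mmp9 (chr2:164943013-164943213). Ckap5 (chr2:91537652-91537852) encodes a microtubule polymerase.
Spi1: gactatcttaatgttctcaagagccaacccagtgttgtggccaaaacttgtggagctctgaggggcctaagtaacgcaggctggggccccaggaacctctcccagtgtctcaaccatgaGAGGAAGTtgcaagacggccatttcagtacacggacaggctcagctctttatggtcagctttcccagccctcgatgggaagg
Mmp9: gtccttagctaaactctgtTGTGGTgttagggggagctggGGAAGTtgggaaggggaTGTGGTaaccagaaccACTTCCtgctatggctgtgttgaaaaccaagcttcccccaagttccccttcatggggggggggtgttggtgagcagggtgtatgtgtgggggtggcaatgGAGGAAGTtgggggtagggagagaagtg
Ckap5: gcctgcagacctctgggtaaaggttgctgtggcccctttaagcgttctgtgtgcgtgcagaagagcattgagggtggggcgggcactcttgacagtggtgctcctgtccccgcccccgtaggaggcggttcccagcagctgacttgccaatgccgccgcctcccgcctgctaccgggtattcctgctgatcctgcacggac
Both myeloid windows held a PU.1 match, which 12.7% of all first-intron regions did, and Mmp9 also held 2 RUNX matches. The strongest regions of the myeloid genes Padi4, Prtn3 and Csf1r held no PU.1 match. That of the myeloid gene Cx3cr1 held one, as did that of the platelet gene Cd36. The Ckap5 window held none of the 7 motifs in capitals.

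The fold enrichment of the first-intron regions was lower than that of other distal regions. Their median was 6.29 in replicate 1 and 6.83 in replicate 2, against 6.82 and 7.41 in later introns and 7.06 and 7.66 between genes. Over the mean of the replicates the medians were 6.55, 7.13 and 7.33, with 8.89 at promoters. First-intron values ran from 2.17 to 22.3, with quartiles of 4.98 and 9.0. Of the first-intron regions 1.86% reached 15-fold, against 2.93% in later introns, and 9.71% stayed under 4-fold, against 5.94%. The order was the same when each replicate's own regions were used, with first-intron medians of 5.82 and 6.07 and later-intron medians of 6.22 and 6.72. With 2 samples an exact two-sided paired permutation test cannot go below p = 0.5, which is what it gave here and in every other comparison of classes that was tested. The order against later introns did not hold for the −log10 p of the same regions, whose medians were 19 and 23.5 in first introns and 18.9 and 23 in later introns.

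**Figure D1:**
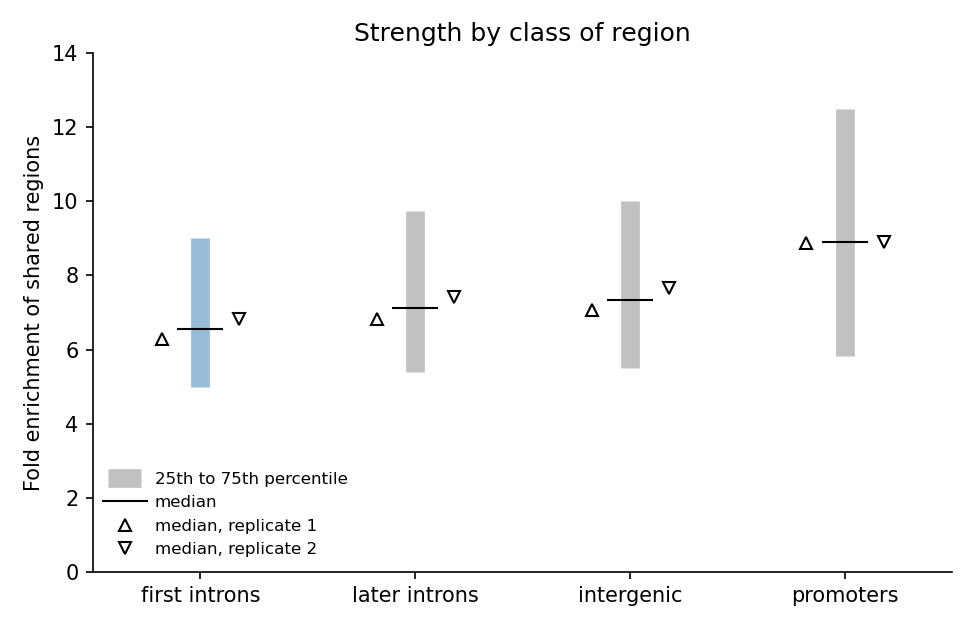
Fold enrichment (linear axis from 0) of shared regions by class, with boxes from the 25th to the 75th percentile over regions of the mean of both replicates, a line at its median, and triangles at the median of each replicate. First introns have the lowest median, 6.55, against 7.13 in later introns, 7.33 between genes and 8.89 at promoters.

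By the rule these regions were called in both samples, so regions found in only 1 of them do not enter the agreement given here. Both samples gave similar values for the regions kept. Of them 96.1% differed by less than 1.5-fold between the replicates, the median log2 ratio of replicate 2 to replicate 1 was 0.07 with an SD over regions of 0.25, and the summits lay a median of 9 bp apart. The median width was 418 bp. The authors' list of replicated peaks held 100% of them, as of the shared regions of every other class. Their conservative list held 79.7%, against 78.9% in later introns and 81.2% between genes. The stricter lists of each sample, thresholded on the irreproducible discovery rate, held 50.9% of them in replicate 1 and 57.2% in replicate 2, close to the 50.8% and 56.2% of later-intron regions. Their median GC content within 100 bp of the summit was 49.3%, against 48.8% in later introns and 60.7% at promoters. Only 2.04% were rich in CpG within that window, against 53.1% of promoter regions. Rich in CpG was taken as over 50% GC with a ratio of observed to expected CpG above 0.6. At least 50% of the window was in repeats in 3.96% of first-intron regions. Of the summits 98 (1.36%) fell in an exon of another annotated transcript of a coding gene.

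First introns held more regions per length than later introns, but only near the start. Counted over intron sequence more than 1 kb from every start, and with a region in introns of 2 genes counted in each, shared regions numbered 32.5 per Mb in first introns and 24.9 per Mb in later ones, a ratio of 1.31. Replicate 1 alone gave 37.8 and 29.3 per Mb, and replicate 2 gave 40 and 29.8. At matched distances from the start the ratio was 1.16 at 1 to 2 kb, 1.33 at 2 to 5 kb, 1.21 at 5 to 10 kb and 1.3 at 10 to 20 kb. It was 1.06 at 20 to 50 kb, 0.91 at 50 to 100 kb and 0.682 at 100 to 200 kb, so that beyond 50 kb later introns were the denser. Both replicates showed the same turn. The genes differ between the bins, since only long first introns reach that far. Of 394 genes with over 100 kb of such first-intron sequence, 244 had no shared region within 500 bp of their start. Those genes held 0.642 first-intron regions per 100 kb, against 3.65 in the 150 with one. The distance bins were not matched for this. Beyond 200 kb the ratio rested on Gm20388, an annotated read-through gene whose first intron of 4384 kb spans the starts of 72 other coding genes and holds 159 of the regions. With it the ratio was 1.14, and without it 0.485. The ratio over all distances was 1.29 without it.

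**Figure D2:**
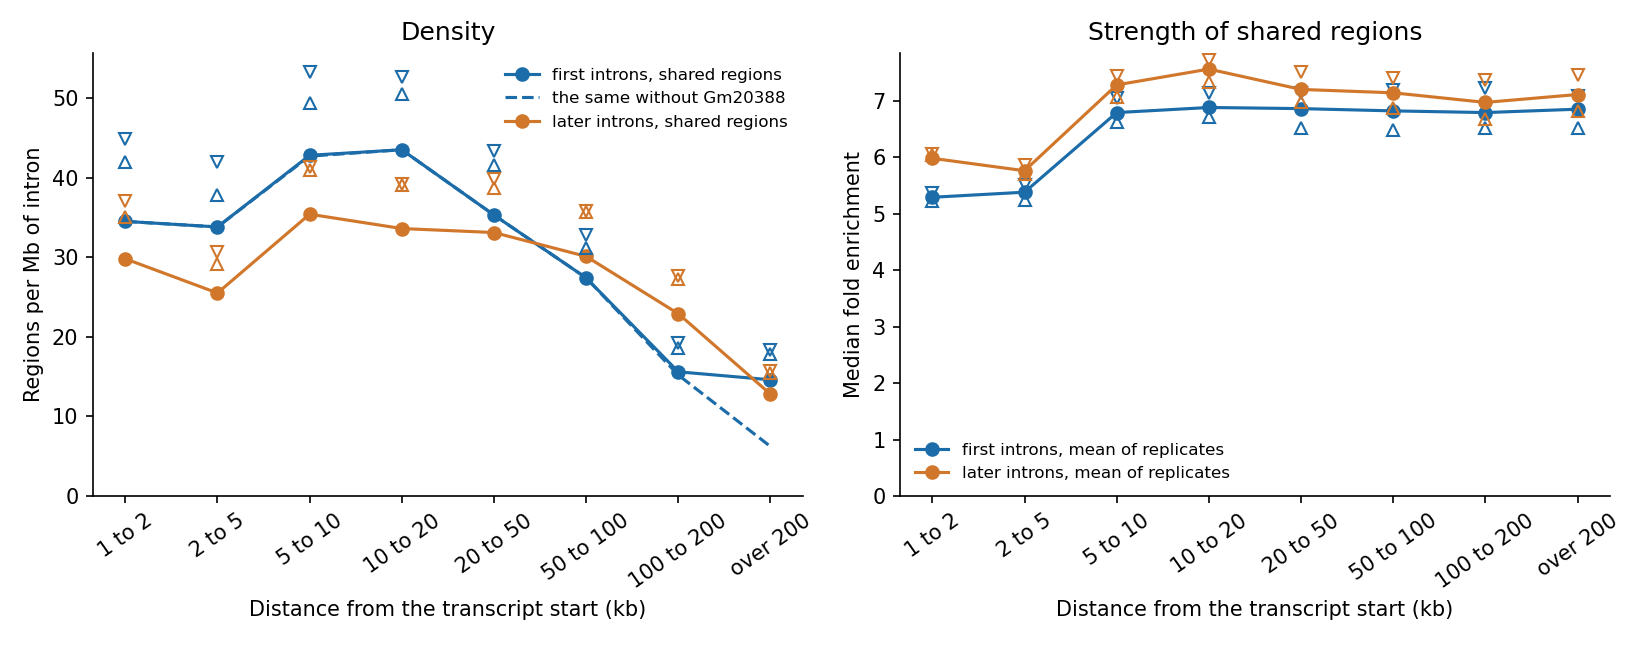
Left, regions per Mb of intron sequence by distance from the transcript start in kb, in first (blue) and later (orange) introns, with filled points for shared regions, open triangles for the regions of replicate 1 (up) and replicate 2 (down) alone, and a dashed line for first introns without Gm20388. Right, the median fold enrichment of the same shared regions. First introns were denser up to 50 kb and less dense at 50 to 200 kb, and their median fold enrichment was lower in every bin.

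The lower fold enrichment held at each distance. Medians were 5.29 at 1 to 2 kb and 5.38 at 2 to 5 kb from the start, against 5.98 and 5.76 in later introns. From 5 kb on they lay between 6.79 and 6.88, against 6.97 to 7.56. The regions lay a median of 16.8 kb from the start (10th to 90th percentile, 2.96 to 84.0 kb), 34.1% were within 10 kb and 568 (7.89%) were beyond 100 kb. Apart from Gm20388, the farthest was 907 kb into Nrg1, which encodes neuregulin. In introns of 10 kb or more the density changed little along the intron, from 28.0 to 33.7 per Mb over 10 equal parts, and median fold enrichment was lowest in the part next to the start, at 5.82. The 1 kb limit made no sharp step, since the 229 regions at 1 to 1.2 kb from the nearest start had a median of 5.37, and the 269 at 0.8 to 1 kb, which were left out, had 5.63.

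Of 12385 genes with at least 500 bp of usable first-intron sequence, 3044 (24.6%) had a region there, with 26.8% and 27.2% in replicates 1 and 2 alone. The first introns of host genes were long, with a median of 22 kb against 5.27 kb in the genes without a region. A single region was found in 1576 genes. The 1468 genes with several held 78.1% of the regions, and 342 genes with 5 or more held 38%. Apart from Gm20388, the genes with the most regions were Cmip with 25, Prkce (protein kinase C epsilon) with 22, Ubash3b (a phosphatase that restrains Syk signalling) with 20 and Tnfaip8 with 18. Ninj2 and Ankrd44 had 17 each, and Hs6st3, Gas7 and Ppp3ca (the catalytic subunit of calcineurin) 16 each. In Cmip they ran from 5.8 to 114 kb from the start, and the strongest was 13.4-fold in replicate 1 and 13.7-fold in replicate 2. The 20 regions of Ubash3b reached 10.5 ± 0.265-fold. Ninj2 and Hs6st3 had no shared region at the start of the same transcript.

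**Figure D3:**
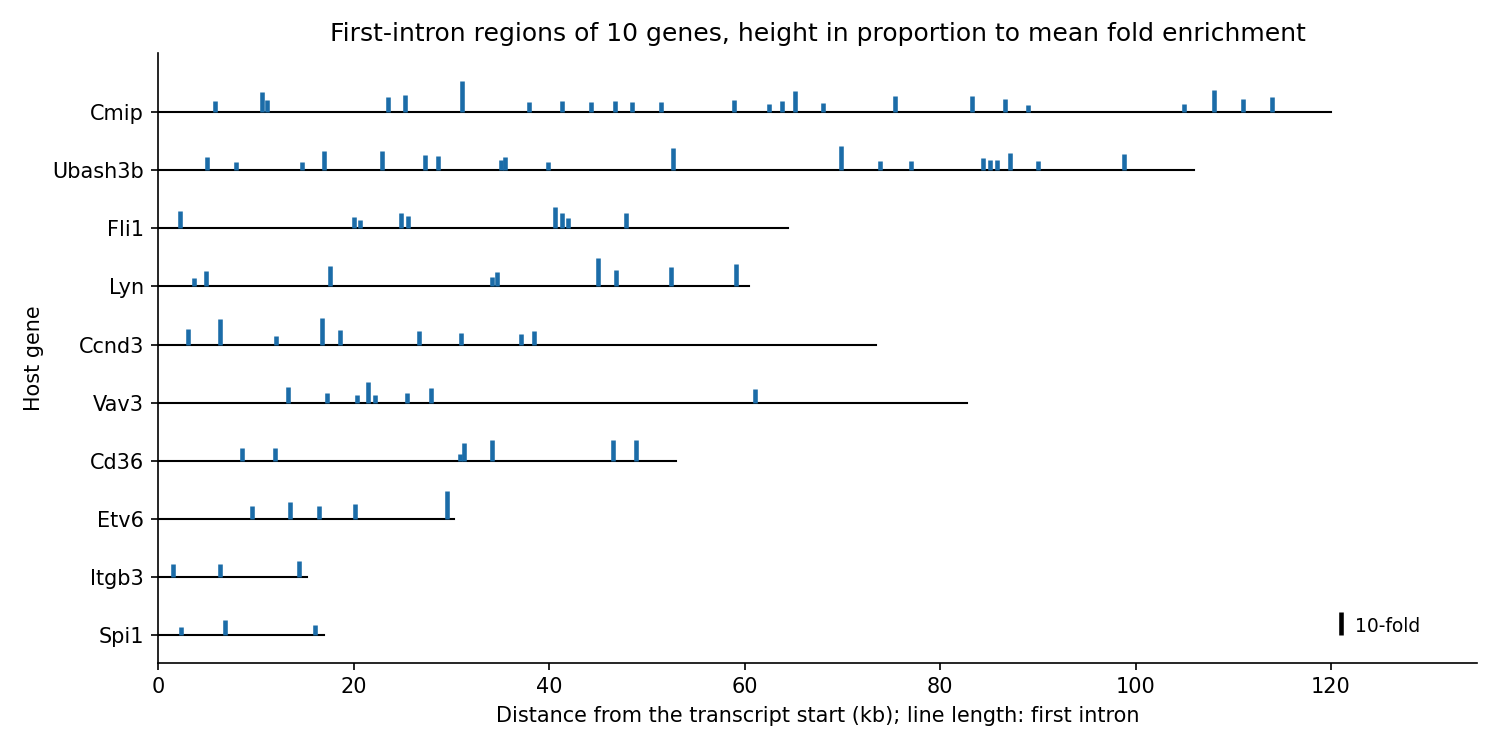
Shared regions along the first introns of 10 genes by distance from the transcript start in kb, with each horizontal line as long as the intron and the height of each bar in proportion to mean fold enrichment (scale bar, 10-fold). The 25 regions of Cmip and the 20 of Ubash3b spread over the whole intron, whereas 7 of the 8 regions of Vav3 lie within 30 kb of the start.

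The strongest regions lay mostly in genes with few of them. Ckap5 had 1 region, at 23.0-fold and 21.6-fold in the replicates (22.3 ± 0.987), and Top3a, which encodes a DNA topoisomerase, had 1 at 22.2 ± 0.0413. Slc26a3, which encodes a chloride and bicarbonate exchanger, followed at 21.5 ± 0.935, and the chemokine gene Ccl28 at 21.1 ± 0.866. Bptf, a subunit of the nucleosome remodelling factor, had 19.5 ± 0.666, and Pcdh17, Ubr4, 4931414P19Rik, Plag1 and Fshr had 18.5 to 19.3. A search of the genome found no second copy of any of these 10 sequences over at least 50% of their length.

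A larger share of the genes with an open start had a first-intron region. Among the 7387 measured genes with a shared region within 500 bp of the start of the same transcript, 31.6% had one, against 14.2% of the 4998 without. The replicates alone gave 33.8% against 16.2% and 34.7% against 15.5%. In genes with 5 to 10 kb of usable intron the shares were 27.2% and 14.2%, at 20 to 50 kb they were 67.3% and 32.5%, and above 100 kb 87.3% and 37.3%. The order was the same in all 7 length classes. Per length, genes with an open start had 4.88 regions per 100 kb and the others 1.33. Of the regions themselves 5765 (80.1%) lay in a gene with an open start, and their median fold enrichment was 6.48, against 6.92 in genes without. The share of genes with an open start was 54.1% where there was no first-intron region and 85% where there were 10 or more, while the median fold enrichment at those open starts was 12.1 and 8.36.

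**Figure D4:**
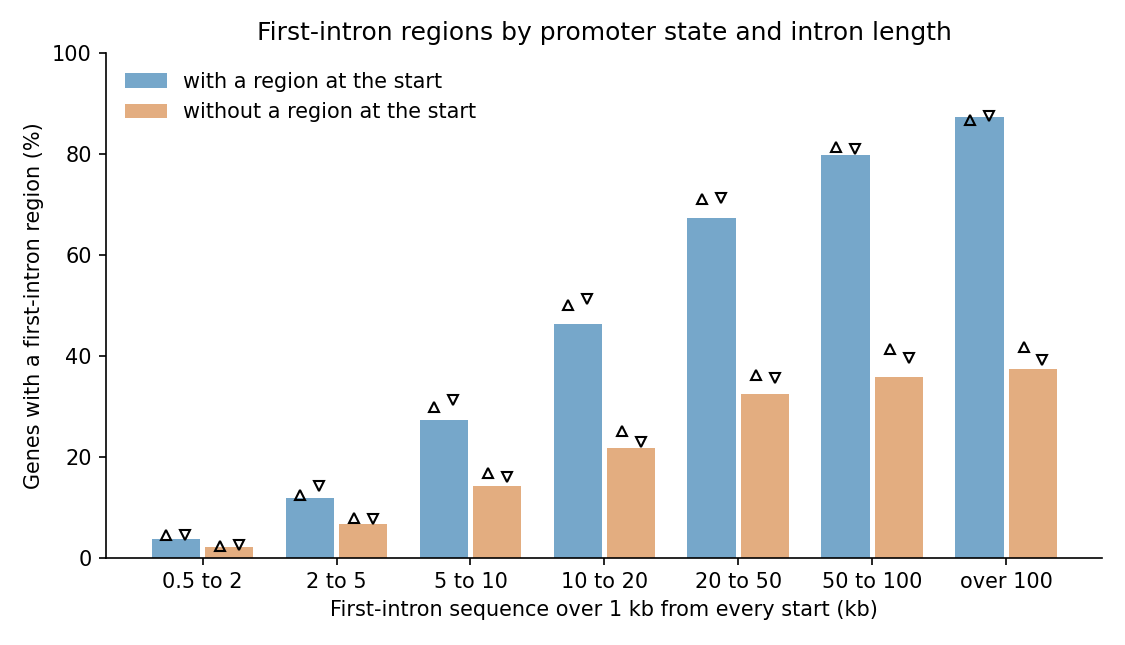
Percent of genes with at least 1 shared first-intron region by usable first-intron length in kb, for genes with (blue) and without (orange) a shared region within 500 bp of the start; triangles give replicate 1 (up) and replicate 2 (down) alone. The share with an open start is the higher in each class, from 3.6% against 2.06% in the shortest to 87.3% against 37.3% in the longest.

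ETS-family motifs were the most frequent of the blood cell motifs searched, and GATA motifs were no more frequent than in the flanks unless GC content was held alike. An ETS match lay within 100 bp of the summit in 42.5% of first-intron regions, against 11.4% of windows of the same length 1 kb to each side. The longer PU.1 match was in 12.7%, against 1.24%, which is 10.2 times as often. RUNX matches were in 27.1% (1.72 times the flanks), C/EBP (TTGCNNAA) in 16.0% (2.09 times), AP-1 in 11.7% (1.96 times) and the longer NF-E2 match (GCTGAGTCA, which contains an AP-1 match) in 1.42% (4.34 times). GATA matches were in 9.48% of regions and 10.6% of flanks, 0.895 times as often, and the TAL1 E-box was at 16.5%, 1.06 times the flanks. The shorter GATAA, tried after seeing the data, gave 0.819 times. The summit windows had more GC than the flanks (medians 49.3% and 45.8%). Between windows of like GC content, which was also added after seeing the data, the GATA ratio was 1.06 at 35% to 45% GC, 1.16 at 45% to 55% and 1.56 at 55% to 65%, while PU.1 stayed between 8.75 and 10.4. All 3 GC ranges thus gave a GATA ratio above 1, while all windows together gave one below 1.

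**Figure D5:**
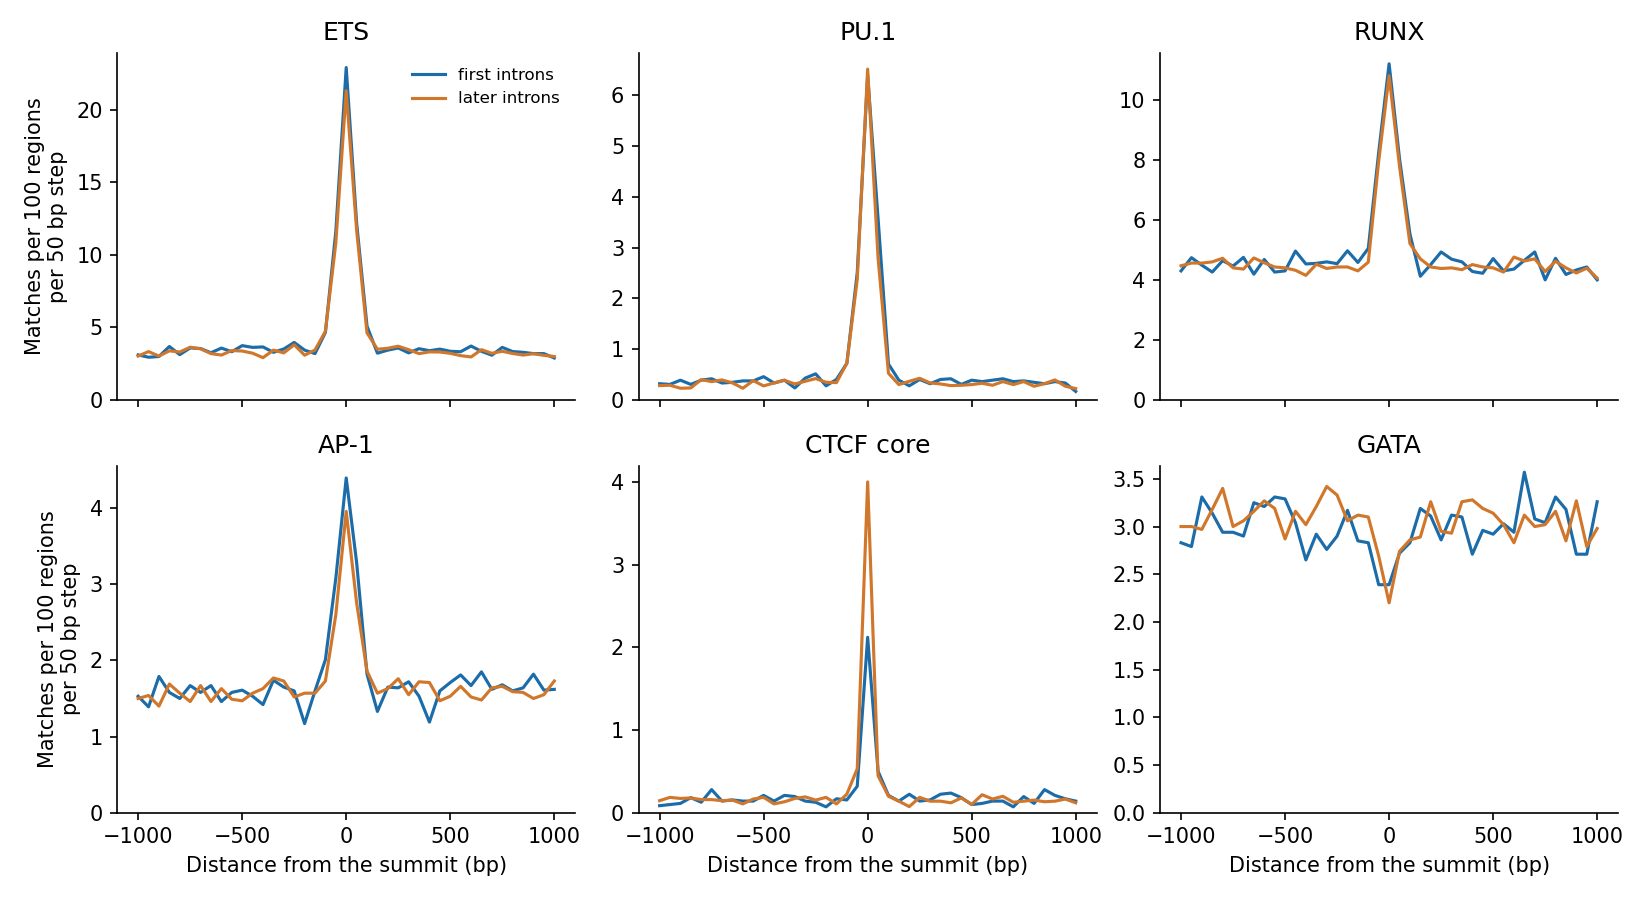
Matches per 100 shared regions in steps of 50 bp, by distance from the summit in bp, for 6 motifs in first (blue) and later (orange) introns; each panel has its own vertical axis from 0. ETS, PU.1, RUNX, AP-1 and CTCF core matches peak at the summit in both classes and GATA matches do not, and the CTCF core peak is lower in first introns.

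CTCF core matches were rarer in first introns than in later introns or between genes, and ETS and AP-1 matches were more frequent. CTCF binds insulators and anchors chromatin loops. Its core match was in 3.0% of first-intron regions, 4.97% of later-intron regions and 6.41% of those between genes. Replicate 1 alone gave 3.15% and 4.88% in first and later introns, and replicate 2 gave 2.85% and 4.63%. ETS matches were in 42.5% of first-intron and 39.5% of later-intron regions, with 41.2% against 38.3% in replicate 1 and 41.3% against 39.1% in replicate 2. AP-1 matches were in 11.7% and 10.2%, with 11.4% against 9.94% in replicate 1 and 11.5% against 10.1% in replicate 2. PU.1 matches were in 12.7% and 11.8% and RUNX matches in 27.1% and 26.2%, but these gaps of 0.90 and 0.92 percentage points were 0.44 and 0.33 in replicate 2 alone, and 0.13 and 0.26 within 50 bp of the summit. GATA shares were 9.48% and 9.47%, and turned to lower in first introns in each replicate alone (9.72% against 10.1% and 9.35% against 9.75%). The SP motif (GGGCGG) of promoters was in 7.03% of first-intron regions and 44.4% of promoter regions. Its share in first introns was 12.6% at 1 to 2 kb from the start, 4.91% at 100 to 200 kb and 9.09% beyond 200 kb.

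Stronger regions carried more ETS and fewer GATA matches, in comparisons where GC content was not held alike. With the first-intron regions split by mean fold enrichment into 5 groups of like size, 47.7% of the strongest group had an ETS match and 15.3% a PU.1 match, against 38% and 9.38% in the weakest. GATA matches went the other way, at 7.01% and 10.8%. Median fold enrichment was 7.41 with an NF-E2 match and 6.54 without, 7.02 and 6.5 for PU.1, 7.0 and 6.5 for AP-1, and 6.15 and 6.6 for GATA. Replicates 1 and 2 gave the same order for GATA, 5.84 against 6.35 and 6.43 against 6.86. Regions with at least 3 of the ETS, GATA, RUNX and AP-1 motifs were 2.4% of the total, with a median of 7.39, against 6.43 in the 32.7% that had none.

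Of the megakaryocyte and platelet surface and granule genes, 9 of 18 measured had a first-intron region, and of the megakaryocyte transcription factor genes 10 of 17. All measured genes in the same classes of intron length had one in 26.6% and 27.7%. The start was open in 10 of the 18 and 14 of the 17 genes, against 59.6% of all measured genes. The density was 11.3 and 10.6 regions per 100 kb, against 3.19 over all measured genes. That last value is matched for neither intron length nor open start. It was 1.65 in genes with over 100 kb of usable intron and 4.13 to 4.37 in the classes from 5 to 50 kb. Genes with an open start in those classes had 5.01 to 5.43. Many defining genes do not enter these counts, since the first intron of the longest transcript is too short after the 1 kb limit. These include Gp1ba, Gp1bb, Gp5, Gp9, Pf4, Ppbp, Vwf, Runx1 and Tal1. Itga2b was measured over 0.683 kb and had no region.

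Cd36, the platelet glycoprotein IV that takes up fatty acids, had 7 regions from 8.58 to 48.9 kb, of which the strongest was 8.34-fold in replicate 1 and 9.8-fold in replicate 2. Its longest transcript had no shared region at the start. Itga2, the alpha chain of the collagen receptor, had 4 regions, the strongest at 8.87-fold and 9.87-fold. Itgb3, the beta chain of the fibrinogen receptor, had 3 regions, at 5.44-fold, 5.53-fold and 6.96-fold on average. The first and second of these held both a GATA and a RUNX match, which were in 9.48% and 27.1% of all first-intron regions. P2ry12, the ADP receptor, and Srgn, the proteoglycan core of granules, had 3 each, with the strongest at 8.77 ± 1.07 and 7.1 ± 0.052.

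Fli1, an ETS factor of megakaryocytes, had 9 regions from 2.19 to 47.8 kb. The strongest, printed above, was 9.59-fold in replicate 1 and 9.25-fold in replicate 2 against a mean of 3.27-fold at the start of that transcript. ETS matches were in 5 of the 9 and a GATA match in none, where 42.5% and 9.48% of all first-intron regions held them. Etv6, another ETS factor, had 5 regions, all with an ETS match, and the strongest was 13-fold and 10.9-fold. Bach1, a partner of small MAF proteins, had 2 regions with the strongest at 10.9 ± 0.453, and Zfpm1 had 2 with the strongest at 9.07 ± 1.06.

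Platelet and cytokine signalling genes had a region in 16 of 24 measured, against 33.2% of all genes of like length, and 9.79 per 100 kb. All 24 had an open start, and the genes of like length include those without one. Lyn, a Src family kinase, had 9 regions and the strongest was 12.4-fold and 12.2-fold. The guanine exchange factor Vav3 had 8, up to 9.05 ± 0.286, and Stat5b, a transcription factor of cytokine signalling, had 5, up to 10.1 ± 0.751. Cytoskeletal genes of proplatelet formation had a region in 10 of 18, against 32% of all genes of like length, and 8.79 per 100 kb. They were led by Actn1 with 5 up to 12.3 ± 0.639, and by Wasf2 and Diaph1 with 4 each. The start was open in 16 of these 18 genes.

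The lists of other blood cells did not stand uniformly lower. Neutrophil genes had a region in 4 of 9 measured, at 22.3 per 100 kb, and monocyte and macrophage genes in 7 of 11, at 12.9 per 100 kb, with 10.3% and 19.5% in all genes of like length. These rest on few and short introns, with medians of 3.34 and 2.86 kb. The start was open in 7 of the 9 and 9 of the 11 genes. Padi4, which citrullinates histones in neutrophils, had 2 regions, at 8.24 ± 0.0248 and 3.38-fold, and the protease gene Prtn3 had 2, up to 6.71 ± 0.374. Spi1 had 3 regions, up to 6.49 ± 0.731, Csf1r, the receptor of monocyte growth factor, had 2, up to 9.38 ± 0.609, and Cx3cr1, a chemokine receptor, had 2, up to 9.15 ± 0.359. Erythroid genes had a region in 7 of 18 (38.9%, against 26.6% of all genes of like length), at 3.23 per 100 kb, led by the iron carrier Slc25a37 with 4. Stem and progenitor genes had one in 7 of 12 (58.3%, against 29.1%), at 3.55 per 100 kb. Both densities were close to the 3.19 of all measured genes, which is matched for neither intron length nor open start. The 2 lists include long first introns, of up to 84.4 kb and 152 kb of usable sequence. T and NK cell genes had 6 of 15 (40%, against 26.4%), at 6.42 per 100 kb, with 5 regions in Cd247. B cell genes had 3 of 14 (21.4%, against 26.1%), at 3.76 per 100 kb, with 6 regions in Bach2. Open starts were found in 11 of the 18 erythroid, 6 of the 12 stem and progenitor, 7 of the 15 T and NK cell and 7 of the 14 B cell genes.

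Lists of cells outside the blood had regions in 1 to 4 genes each. Endothelial genes had a region in 3 of 10, mesenchymal stromal genes in 2 of 13 and hepatocyte genes in 1 of 8, namely Hnf4a, against 22.3%, 18.3% and 18.1% of all genes of like length. Their densities were 3.11, 2.16 and 3.01 per 100 kb, against 3.19 over all measured genes. Open starts were found in 2 of the 10 endothelial, 2 of the 13 mesenchymal, 1 of the 8 hepatocyte and 2 of the 12 neuronal genes. Neuronal genes had one in 4 of 12, where 40.2% of all genes of like length did, and 0.475 regions per 100 kb in introns of up to 569 kb. Csmd1 had 4 of these, up to 16.6 ± 0.215. Mast cell, basophil and eosinophil genes had none in 4 measured, where all genes of like length had one in 11.2%. Housekeeping genes, all 9 of them with an open start, had a region in 1 of 9, namely Rab7, which is near the 14.7% of all genes of like length. Of 4 measured cell cycle genes, with 18.9% in all genes of like length, only Ccnd3, which encodes cyclin D3, had any, with 9 regions and the strongest at 11.9-fold and 11-fold.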

How the data were processed

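The samples were 2 ATAC-seq libraries in 1 group, per the labels on mm10; the peak caller and aligner are not given in the sources used here. The authors deposited peak lists. In these the deposited column 7 holds a fold enrichment, a ratio, and column 8 the −log10 p-value, read from the peak format since no header defines them. No peak used had p above 0.00997. The 106308 and 111873 peaks of replicates 1 and 2 on chromosomes 1 to 19 merged, at 1 bp of overlap, into 78004 and 79861 regions. Longest transcripts, by genomic span, came from GENCODE M21, and sequences from RefSeq's GRCm38. Where a summit lay in several first introns (132 regions), the gene with the nearest start was taken as host. Tools were python 3.11.15, pandas 2.3.3, numpy 2.4.6, scipy 1.17.1, matplotlib 3.10.9 and blastn 2.17.0, and the counting was tested on simulated data.

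Named genes were the 10 with the most regions, the hosts of the 10 strongest, the top 3 of each of 17 lists, and megakaryocyte surface and transcription factor genes with at least 3 regions. Sequences came from the 4 and 3 top members of the latter lists and the strongest region with no second copy. The members, lists, motifs and tests were chosen with earlier results of these data known. No list was tested for enrichment.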

Additional observations from a re-analysis of the deposited data

How the results depend on the processing

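The number of first-intron regions was 7201 and stayed within 1.5 times of that under the alternatives, except for 3232 with the IDR-thresholded lists, which hold fewer peaks. With those lists the regions were 8.92% of all shared regions, 15.2% of measured genes had one, and genes with an open start had one more often by 10.5 percentage points (17.4 as reported). The percentage of regions was 10.1 with peaks of at least 4-fold, 9.21 beyond 2 kb from every start, 9.29 with the longest transcript by exon length and, in an alternative chosen after seeing the data, 9.9 without first introns that hold another coding start. The percentage of genes was 24.0 at 50% reciprocal overlap, 22.4 with 4-fold peaks, 26.8 beyond 2 kb and 23.3 by exon length. The density ratio was 1.24 with 4-fold peaks.

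The log2 ratio of median fold enrichment to later introns was -0.12, then -0.08 with 4-fold peaks and -0.09 beyond 2 kb, and it turned to 0.02 for −log10 p; the cause was not tested. Against intergenic regions it was -0.16, then -0.14 with the IDR lists, -0.11 with 4-fold peaks, -0.14 beyond 2 kb and -0.08 for −log10 p.

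Motif differences, first minus later introns in percentage points, were for ETS 2.98, 3.79 with the IDR lists and 1.99 within 50 bp of the summit. PU.1 gave 0.90, 1.15, 0.13 and, without introns that hold another coding start, 1.14. RUNX gave 0.92 and 0.26 within 50 bp. AP-1 gave 1.47, 2.76, 1.13, 1.64 without such introns and 1.57 without Gm20388. CTCF core gave -1.97, -2.59, -1.92, -2.15 and -2.11. GATA, at 0.02, turned to -0.49 with the IDR lists, -0.02 without such introns, -0.02 without Gm20388 and -0.48 with GATAA, and was 0.21 within 50 bp; the cause was not tested. The ratio of GATA matches at summits to flanks, 0.895 as reported, was 1.06, 1.16 and 1.56 between windows of 35% to 45%, 45% to 55% and 55% to 65% GC, an alternative chosen after seeing the data in which only windows of like base composition are compared.

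Each replicate alone, by leaving the other out, gave 8376 to 8846 regions (10.7% to 11.1%), a density ratio of 1.29 to 1.34, log2 ratios of -0.15 to -0.10 and -0.18 to -0.16, 26.8% to 27.2% of genes and 17.6 to 19.2 points by open start. Motif differences ran from 2.26 to 2.88 for ETS, 0.44 to 0.77 for PU.1, -0.40 to -0.39 for GATA, 0.33 to 0.69 for RUNX, 1.41 to 1.42 for AP-1 and -1.78 to -1.72 for CTCF core. Of 107 recomputed values 54 moved by less than the spread between replicates (counts by less than 1.5 times), 46 by more in the same direction, and 7 turned. Depth is unknown, so weak regions may be missing from either sample.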
